A study of Homo sapiens with 4 samples.

Results

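The EGF receptor family and its ligands were examined as a set of 9 genes: the ligands TGFA, EREG, AREG, HBEGF and BTC, the receptors EGFR, ERBB2 and ERBB3, and ERRFI1, an inhibitor of the receptors. They were chosen by name as genes of the pathway, with earlier results of these data known, and all 9 were found among the 59409 gene symbols of the expression table. Polyadenylated RNA was sequenced from 786-O, a VHL-deficient line established from a human renal carcinoma. The 2 DEK knockout libraries came from cells that already expressed Cas9, were infected with lentiviral LentiGuide-Puro vectors carrying DEK gRNAs and were then sorted as single cells into clones. The 2 control libraries are labelled negative control with a wild-type genotype, and their column names refer to Cas9. Cas9 came from the virus LentiCas9-Blast, also in a cloned line, and all cells were grown in a standard medium with serum. The labels name no clone for any library and do not say whether libraries of a group were separate cultures, so the p-values reflect the spread from library to library and no more, and that spread may be technical. DEK is a chromatin-associated protein, and the comparison asks how the transcriptome differs without it. In DEK knockout libraries the mRNAs of TGFA, EREG, AREG and ERRFI1 were higher than in controls and that of EGFR was lower.

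EGF-family ligands are made as membrane-anchored precursors that proteases at the cell surface release. A ligand bound to EGFR brings receptors together in pairs, their kinase domains phosphorylate each other, and adaptors on the phosphorylated tails switch on RAS and the ERK kinase cascade. The pathway also induces its own ligands and its own inhibitors. In renal carcinoma without VHL, TGFA is known as a target of hypoxia-inducible factor, and it can act on EGFR of the same cells.

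Expression was deposited as TPM, transcripts per 1000000, a unit that corrects for gene length and library size and so allows levels to be compared between genes. Depth was estimated at 35.8 and 40.1 in the DEK knockouts and at 38.9 and 39.5 in the controls, counted in units of 1000000 reads. DEK itself was at 31.4 and 15.7 TPM in the knockouts, against 95.02 and 76.3 TPM in the controls (log2 fold change -1.89, SE 0.33, limma adjusted p = 0.0304). Both knockout libraries thus held less DEK mRNA but still some, and DEK protein was not measured. DEK did not pass without control 1 or control 2 (limma adjusted p = 0.139 and 0.103). Genes were tested where 2 or more libraries reached 1 TPM, and of these 15815 genes 17.7% passed an adjusted p of 0.05, 9.06% higher and 8.67% lower in the knockouts. Without control 1 or without control 2, only 47 and 51 genes passed, so nearly every call below rests on both controls. The renal lineage factor PAX8 was at 140.1 and 160.4 TPM in the knockouts and at 152.9 and 141.6 TPM in the controls, whereas PAX2 fell to 12.4 and 8.94 TPM in the knockouts, against 24.8 and 22.1 TPM in the controls (limma adjusted p = 0.027). CDH6, another renal epithelial marker, also fell (log2 fold change -0.50, limma adjusted p = 0.0384), and EPAS1, which encodes a hypoxia-inducible factor, did not pass (limma adjusted p = 0.0746). The 4 leukocyte markers summed to 0.2616 and 0.1294 TPM in the knockouts and 0.2999 and 0.5205 TPM in the controls, with CD3E at 0 in every library. The 4 endothelial markers summed to 0.0383 and 0.277 TPM in the knockouts and 0.0187 and 0.0753 TPM in the controls. The 4 fibroblast markers summed to 2.363 and 1.495 TPM in the knockouts and 1.597 and 1.604 TPM in the controls, nearly all from COL1A1, with COL3A1 and PDGFRA at 0. The 3 squamous markers summed to 0.264 and 0 TPM in the knockouts and 0.0151 and 0.0583 TPM in the controls, with KRT5 at 0. In bulk RNA, fewer cells that express a gene and less of its RNA per cell cannot be told apart.

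Promoter sequence was available from RefSeq (GRCh38.p14) for 8 of the 9 genes, in 10 windows of 250 bases that end just before an annotated start. The windows of the 3 ligands with the highest mean level in the knockouts and of the receptor that fell are shown because the results turn on these 4 genes. They lie at chr4:74444886-74445135 (plus strand, AREG), chr4:74364895-74365144 (plus strand, EREG), chr2:70553827-70554076 (minus strand, the first of 2 TGFA starts) and chr7:55018767-55019016 (plus strand, the first of 2 EGFR starts). Sequences read 5′ to 3′ along the gene, and capitals mark matches on either strand to TGANTCA (the site of AP-1), TGACGTCA (the cyclic AMP response element, CRE), ACGTG and GCGTG (cores of hypoxia response elements) and TATAAA (the TATA box).
AREG: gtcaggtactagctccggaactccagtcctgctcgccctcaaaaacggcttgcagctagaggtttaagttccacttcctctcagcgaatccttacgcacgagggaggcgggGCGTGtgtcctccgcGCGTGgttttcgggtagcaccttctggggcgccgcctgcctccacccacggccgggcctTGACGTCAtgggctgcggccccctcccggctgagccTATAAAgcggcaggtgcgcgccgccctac
EREG: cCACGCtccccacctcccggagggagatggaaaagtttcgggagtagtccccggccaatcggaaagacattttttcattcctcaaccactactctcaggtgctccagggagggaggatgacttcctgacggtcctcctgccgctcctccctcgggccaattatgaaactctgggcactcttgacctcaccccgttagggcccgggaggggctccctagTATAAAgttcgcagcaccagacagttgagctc
TGFA: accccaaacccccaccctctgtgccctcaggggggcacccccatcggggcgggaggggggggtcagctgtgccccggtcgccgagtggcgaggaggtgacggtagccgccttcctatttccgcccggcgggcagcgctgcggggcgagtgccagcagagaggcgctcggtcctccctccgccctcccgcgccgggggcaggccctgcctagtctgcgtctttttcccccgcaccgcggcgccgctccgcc
EGFR: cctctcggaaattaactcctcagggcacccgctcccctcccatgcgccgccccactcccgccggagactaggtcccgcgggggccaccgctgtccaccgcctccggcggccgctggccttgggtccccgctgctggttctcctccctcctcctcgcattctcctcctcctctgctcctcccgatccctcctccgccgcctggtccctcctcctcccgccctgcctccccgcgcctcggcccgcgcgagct

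The AREG window held a CRE that begins 65 bases before the start, a TATA box at 29 bases and GCGTG at 139 and 124 bases. The EREG window held a TATA box at 32 bases and, on the opposite strand, GCGTG at 249 bases. None of these motifs was found in the windows shown for TGFA and EGFR, which were 75.6% and 73.6% G and C, against 65.2% for AREG and 58% for EREG. Among 35116 RefSeq windows of the same length, 1.65% held the CRE, 10.7% the TATA box, 6.57% the AP-1 site, 18.5% ACGTG and 32.2% GCGTG, so GCGTG is common. Of the other windows, the second TGFA start and BTC each held a single GCGTG, ERBB2 held a single AP-1 site, and the second EGFR start held 2 AP-1 sites and 2 TATA boxes. HBEGF and ERRFI1 held none of the motifs. A match describes these letters only and does not show that a factor binds there.

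TGFA encodes transforming growth factor alpha, a high-affinity EGFR ligand, and was the most abundant of the ligands in every library. Its gene occupies bases 70447280 to 70554193 of chromosome 2, minus strand, in GENCODE 29 on GRCh38, which also gives the positions below. The intronic transcript TGFA-IT1 overlaps it on the same strand, so its value is uncertain to that extent. TGFA was at 639.6 and 661.9 TPM in the DEK knockouts, against 172.2 and 179.6 TPM in the controls. The 2 knockout libraries differed by less from each other than from either control, and the groups did not overlap. The mean was 650.8 ± 15.8 TPM in knockouts and 175.9 ± 5.21 TPM in controls (SD, n = 2 each), a 3.70-fold higher level (log2 fold change 1.88, SE 0.061, limma adjusted p = 0.00405). Among the 15815 tested genes it ranked 178 and 174 by level in the knockouts, against 908 and 829 in the controls. TGFA rose in each of 15 alternative analyses, with a log2 fold change of 1.82 to 1.98 and limma adjusted p-values of 3.39e-04 to 0.0409.

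The tested genes whose profile over the 4 libraries lay closest to that of TGFA were AC012065.2, LINC01629 and CYTH4, by Euclidean distance of log2(TPM + 1) values centred on each gene's mean (0.0629, 0.084 and 0.0858). LINC01629, a long noncoding RNA gene on chromosome 14, was at 73.6 and 73.3 TPM in the knockouts and at 18.0 and 20.3 TPM in the controls. CYTH4, a cytohesin family member on chromosome 22, was at 5.53 and 5.42 TPM in the knockouts and at 0.716 and 0.892 TPM in the controls. AC012065.2, on the same chromosome as TGFA, was at 5.16 and 5.25 TPM in the knockouts and at 0.676 and 0.651 TPM in the controls. AC012065.2 and CYTH4 entered the tested set only through their knockout values.

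EREG and AREG, which encode epiregulin and amphiregulin, are neighbours on chromosome 4, separated by 56.4 kb in a cluster with EPGN and BTC that spans 486 kb. Epiregulin binds EGFR and ERBB4, and amphiregulin is a low-affinity EGFR ligand. EREG (74365143 to 74388751, plus strand) was at 177.6 and 271.2 TPM in the knockouts, against 84.9 and 70.7 TPM in the controls. Its knockout libraries lay apart from both controls but differed from each other 1.53-fold. The mean was 224.4 ± 66.2 TPM in knockouts and 77.8 ± 10.1 TPM in controls (SD, n = 2 each), 2.88-fold higher (log2 fold change 1.49, SE 0.22, limma adjusted p = 0.0229). Without control 1 or control 2 it did not pass (limma adjusted p = 0.0967 and 0.103), although its log2 fold change was 1.620 and 1.359.

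AREG (74445134 to 74455009, plus strand) had the largest fold change of the tested family members and the largest ratio between the knockouts. It was at 28.9 and 90.4 TPM in the knockouts, against 4.73 and 4.63 TPM in the controls. Knockout 1 was thus 6.18-fold and knockout 2 was 19.3-fold above the control mean, and the knockouts differed from each other 3.13-fold. The mean was 59.6 ± 43.5 TPM in knockouts and 4.68 ± 0.0647 TPM in controls (SD, n = 2 each) (log2 fold change 3.20, SE 0.53, limma adjusted p = 0.0273). The values rest on about 442 and 1550 estimated reads in the knockouts and 78.9 and 80.1 in the controls. AREG did not pass without control 1 or control 2, and its fold change was 4.01 in log2 without knockout 1 and 2.40 without knockout 2. EREG was 6.144 and 3.002 times as abundant as AREG in the knockouts, against 17.97 and 15.26 times in the controls.

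HBEGF (chromosome 5, 140332843 to 140346631, minus strand) encodes heparin-binding EGF-like growth factor, which binds EGFR and ERBB4. It was at 18.9 and 43.0 TPM in the knockouts, against 11.6 and 11.3 TPM in the controls. Both knockouts lay above both controls, 1.65-fold for knockout 1 and 3.76-fold for knockout 2 relative to the control mean. The mean was 30.95 ± 17.0 TPM in knockouts and 11.4 ± 0.178 TPM in controls (SD, n = 2 each), and the log2 fold change of 1.25 did not pass (SE 0.38, limma adjusted p = 0.0821). With knockout 1 left out the log2 fold change was 1.82, and with knockout 2 left out it was 0.68. Such a fit takes its spread from the 2 controls alone and holds none of the 2.27-fold difference between the knockouts.

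BTC encodes betacellulin, a ligand of EGFR and ERBB4, and was the least abundant ligand of the set. Its gene (chromosome 4, 74744759 to 74794686, minus strand) lies 290 kb beyond AREG. BTC was at 2.11 and 2.57 TPM in the knockouts, against 0.671 and 0.898 TPM in the controls, from about 55.2 and 75.4 estimated reads in the knockouts and 19.1 and 26.5 in the controls. The log2 fold change was 0.90 (SE 0.20, limma adjusted p = 0.0446). BTC entered the tested set only through its knockout values and so had to differ, and it passed in 6 of the 12 alternatives that could test it. It did not pass without control 1 or control 2 (limma adjusted p = 0.259 and 0.179).

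**Figure D1:**
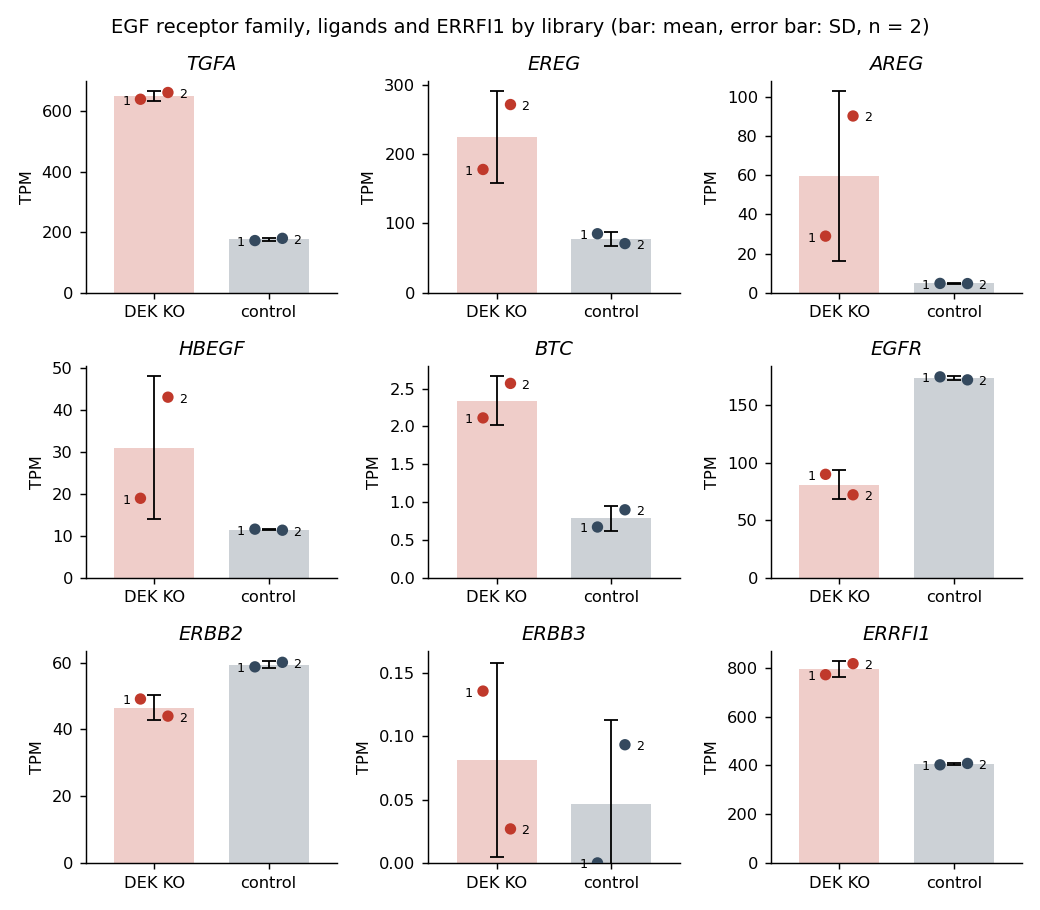
Level in TPM (vertical axis, linear, from 0) of each of the 9 genes in DEK knockout (red, left) and control (blue, right) libraries, with points for libraries 1 and 2, bars for the mean and error bars for the SD (n = 2). The lower error bar of ERBB3 in controls is cut at 0. TGFA and ERRFI1 show close replicates and separate groups, whereas the AREG knockouts differ from each other 3.13-fold.

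Added together, the 5 ligands reached 867.2 and 1069 TPM in the knockouts, against 274.1 and 267.1 TPM in the controls. The mean sum was 968.1 ± 142.8 TPM in knockouts and 270.6 ± 4.93 TPM in controls (SD, n = 2 each), 3.58-fold higher, and the groups did not overlap. TGFA made up 73.8% and 61.9% of the sum in knockouts and 62.8% and 67.2% in controls. AREG made up 3.33% and 8.45% in knockouts and 1.72% and 1.74% in controls, the only ligand whose share was higher in both knockouts than in both controls. EREG made up 20.5% and 25.4% in knockouts and 30.99% and 26.5% in controls. Its share was thus lower in both knockouts although its level was higher. HBEGF made up 2.18% and 4.02% in knockouts and 4.22% and 4.24% in controls, also a lower share in both knockouts. The share of BTC was likewise lower, at 0.2436% and 0.2402% in knockouts and 0.2447% and 0.3362% in controls. These shares describe the libraries and were not tested.

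**Figure D2:**
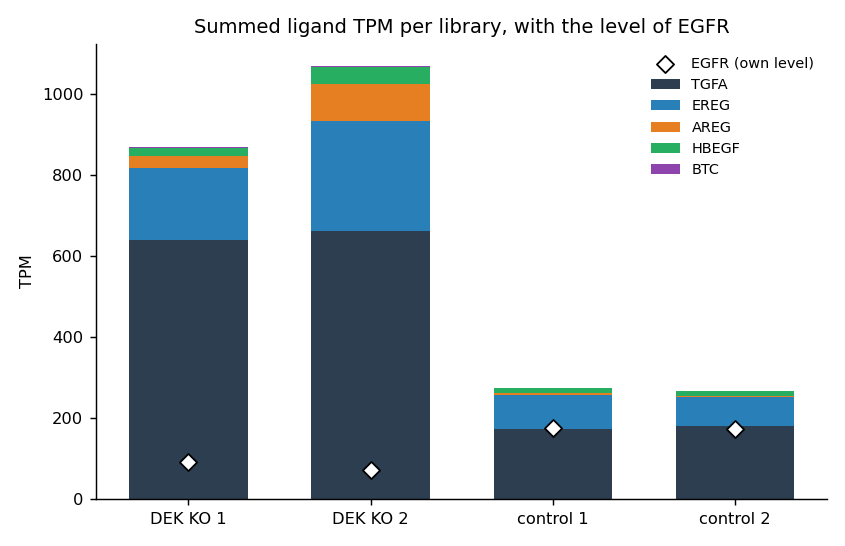
Stacked TPM of the 5 ligands in each library (vertical axis, TPM, linear), with diamonds for the level of EGFR in the same library. The stacks reach 867.2 and 1069 TPM in the DEK knockouts and 274.1 and 267.1 TPM in the controls, while the diamonds sit lower in the knockouts.

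EGFR, the receptor shared by these ligands, was lower in the DEK knockouts. Its gene spans bases 55019021 to 55211628 of chromosome 7, plus strand. EGFR was at 89.96 and 72.1 TPM in the knockouts, against 174.7 and 172.1 TPM in the controls. Both knockouts lay below both controls, and the controls were nearly equal. The mean was 81.05 ± 12.6 TPM in knockouts and 173.4 ± 1.78 TPM in controls (SD, n = 2 each), so the controls were 2.14-fold higher (log2 fold change -1.10, SE 0.12, limma adjusted p = 0.0155). Without control 1 or control 2 it did not pass (limma adjusted p = 0.0991 and 0.088), with a log2 fold change of -1.09 and -1.11. The antisense gene EGFR-AS1 overlaps EGFR and was at 1.11 and 1.27 TPM in the knockouts and at 2.04 and 2.48 TPM in the controls. Whether the counting used strand is not given in the sources used here, so reads of the pair may not be separated, but the antisense level was far below that of EGFR.

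Several genes around EGFR were lower as well. Of 14 other tested genes that start within 2 Mb of it, 5 fell and 0 rose, which is 35.7% lower against 8.67% of all tested genes. These 5 were singled out after their values were seen. LANCL2, a homologue of lanthionine synthetase components, was at 5.78 and 5.04 TPM in the knockouts and at 12.3 and 12.1 TPM in the controls (log2 fold change -1.05, limma adjusted p = 0.0177). NIPSNAP2, a mitochondrial protein, was at 32.1 and 28.6 TPM in the knockouts and at 61.3 and 51.5 TPM in the controls (log2 fold change -0.87, limma adjusted p = 0.0208). PSPH, phosphoserine phosphatase, CCT6A, a subunit of a chaperonin, and CHCHD2, a mitochondrial protein, changed by -0.75, -0.67 and -0.42 in log2 (limma adjusted p = 0.0177, 0.0144 and 0.0188). The median log2 fold change of the 14 neighbours was -0.427, against -0.0585 over all tested genes. It lay at -0.381 in knockout 1 and -0.519 in knockout 2 relative to the control mean. The share that fell was 22% of 41 genes within 10 Mb and 20.3% of 158 genes within 20 Mb, with a median of -0.163 in the widest window. With the median of the surrounding 2 Mb removed in each library, an alternative added after the data were seen, the log2 fold change of EGFR was -0.69 (limma adjusted p = 0.0185). With whole-chromosome medians removed it was -1.02 (limma adjusted p = 0.0295). The median log2 fold change over the 779 tested genes of chromosome 7 was -0.0868, and the median log2 difference of knockout 2 from knockout 1 was 0.213. Among chromosomes 1 to 22 and X this difference was the largest in size, followed by -0.174 on chromosome 1. Between the controls it was -0.0436 on chromosome 7. For the 14 neighbours of EGFR, knockout 2 differed from knockout 1 in the other direction, by a median of -0.131. DNA copy number was not measured, and the part of the region in the lower level of EGFR was not tested. For the other members the medians of the neighbours were -0.0889 around TGFA (32 genes), 0.0505 around AREG (22 genes), 0.0696 around EREG and around BTC (21 genes each, largely the same as those around AREG), 0.0302 around HBEGF (68 genes), 0.0363 around ERBB2 (65 genes), 0.0069 around ERBB3 (96 genes) and -0.0365 around ERRFI1 (48 genes).

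**Figure D3:**
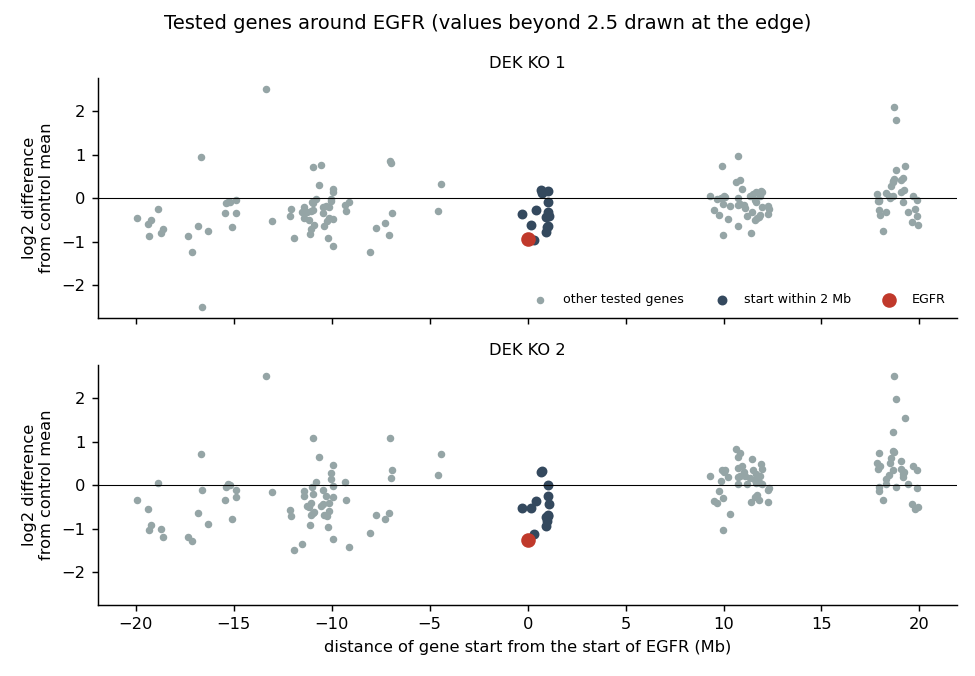
Log2 difference of each tested gene from its control mean (vertical axis, log2(TPM + 1) scale, values beyond 2.5 drawn at the edge) against the distance of its start from the start of EGFR (horizontal axis, Mb), for DEK knockout 1 (top) and DEK knockout 2 (bottom). EGFR is red and genes that start within 2 Mb are dark blue, with medians of -0.381 in knockout 1 and -0.519 in knockout 2.

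The profiles closest to that of EGFR over the 4 libraries were those of GLCCI1, ACBD7 and ABCC4 (distances 0.0112, 0.0578 and 0.0706). GLCCI1, a gene induced by glucocorticoids that also lies on chromosome 7, was at 4.48 and 3.40 TPM in the knockouts and at 9.61 and 9.35 TPM in the controls. ACBD7, an acyl-CoA binding domain protein on chromosome 10, was at 4.41 and 3.59 TPM in the knockouts and at 9.71 and 9.39 TPM in the controls. ABCC4, a transporter on chromosome 13 that exports cyclic nucleotides and drugs, was at 27.4 and 22.9 TPM in the knockouts and at 52.8 and 54.3 TPM in the controls.

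ERBB2, the coreceptor that has no known ligand of its own, spans bases 39687914 to 39730426 of chromosome 17, plus strand. It was at 49.1 and 43.97 TPM in the knockouts, against 58.7 and 60.1 TPM in the controls. Both knockouts lay below both controls by a small margin. The mean was 46.5 ± 3.62 TPM in knockouts and 59.4 ± 0.957 TPM in controls (SD, n = 2 each), and the log2 fold change of -0.35 did not pass (SE 0.088, limma adjusted p = 0.0578). Without knockout 1 the log2 fold change was -0.43. In a set filtered at 5 TPM, ERBB2 passed with all libraries (limma adjusted p = 0.0469). ERBB2 overlaps PGAP3 and MIEN1 on the opposite strand, so its value is uncertain to that extent.

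ERBB3, a receptor for neuregulins with an impaired kinase, spans bases 56076799 to 56103505 of chromosome 12, plus strand, and was barely detected. It was at 0.136 and 0.0268 TPM in the knockouts and at 0 and 0.0933 TPM in the controls, or 9 and 2 estimated reads in knockouts and 0 and 7 in controls. The groups overlapped, and ERBB3 was below the level that allowed a test. At this depth no difference was detectable.

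Together, the 3 receptors summed to 139.2 and 116.2 TPM in the knockouts, against 233.4 and 232.3 TPM in the controls. EGFR made up 64.6% and 62.1% of that sum in knockouts and 74.8% and 74.1% in controls. The ratio of TGFA to EGFR transcripts was 7.11 and 9.18 in knockouts and 0.986 and 1.04 in controls. In controls TGFA and EGFR thus stood at about the same TPM, 175.9 ± 5.21 and 173.4 ± 1.78. The SD covers the spread between libraries only, and the gene lengths used are not given. Whether the levels of TGFA and EGFR differ was therefore not tested. In knockouts AREG and ERBB2 could not be ordered, since AREG was below ERBB2 in knockout 1 and above it in knockout 2. HBEGF was below both in each knockout, but the differences between means were smaller than the larger SD of each pair.

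ERRFI1 encodes MIG6, a protein that ERK signalling induces and that binds the kinase domain of EGFR and blocks it. Its gene spans bases 8004404 to 8026308 of chromosome 1, minus strand. ERRFI1 was at 771.9 and 817.2 TPM in the knockouts, against 402.3 and 408.0 TPM in the controls. It was the most abundant of the 9 genes in every library, and the knockouts lay well apart from the controls. The mean was 794.5 ± 32.0 TPM in knockouts and 405.1 ± 4.08 TPM in controls (SD, n = 2 each), 1.96-fold higher (log2 fold change 0.97, SE 0.061, limma adjusted p = 0.00832). It did not pass without control 1 or control 2 (limma adjusted p = 0.0611 and 0.0654), with a log2 fold change of 0.96 and 0.98. The ratio of ERRFI1 to EGFR transcripts was 8.58 and 11.3 in knockouts and 2.30 and 2.37 in controls. ERRFI1 overlaps AL034417.4 on the opposite strand, and its value is uncertain to that extent.

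**Figure D4:**
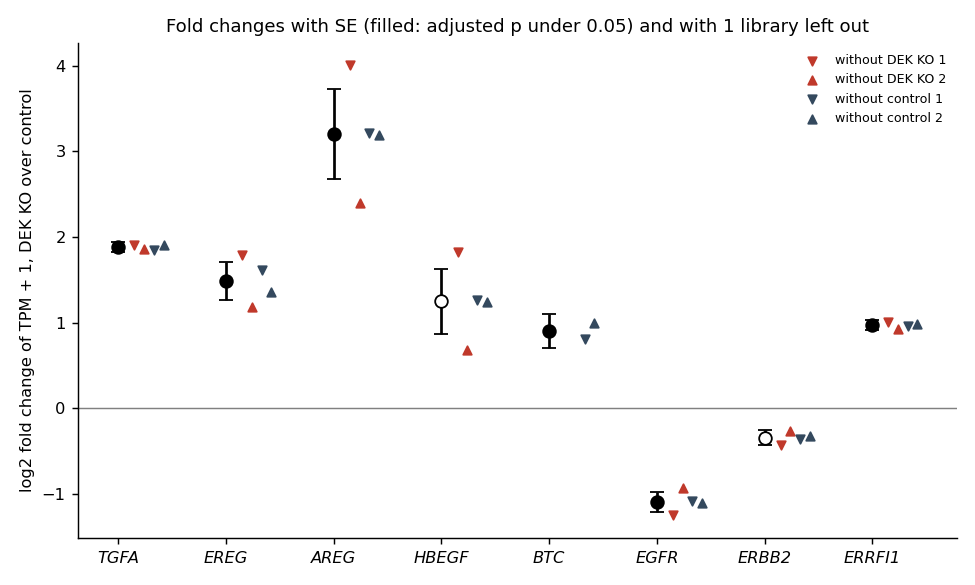
Log2 fold change of TPM + 1, DEK knockout over control, for the 8 tested genes (circles with SE, filled where the limma adjusted p is under 0.05) and the same with 1 library left out (triangles). AREG and HBEGF move most when a knockout is left out, and BTC has no value without either knockout because it then falls below the filter.

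Of the 9 genes, 8 were tested, 5 rose and 1 fell, where 9.06% of all tested genes rose and 8.67% fell. HBEGF and ERBB2 did not pass, and ERBB3 was not tested. The 5 include BTC, which entered the tested set only through its knockout values. The median log2 fold change of the 8 was 1.11, against -0.0585 over all tested genes, but the set was chosen with earlier results of these data known. Both knockouts lay above both controls for 6 of the 9 genes and below them for 2, where 29.2% of tested genes lay above and 39.0% below. The 9 include the untested ERBB3, and for BTC the filter fixed this order. Knockout 2 was higher than knockout 1 for 6 of the 8 tested genes, against 50.3% of all tested genes. Without control 1 or without control 2, TGFA alone of the 8 passed (limma adjusted p = 0.0331 and 0.037).

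The remaining receptor and 6 further ligands of the family were at low levels, and none passed in the main fit. The limma fit tested 3 of the 7, of which 2 had an unadjusted p under 0.05. Over all tested genes 17.7% passed at an adjusted p of 0.05. NRG1, a neuregulin that binds ERBB3 and ERBB4, was at 6.98 and 8.67 TPM in the knockouts, against 4.51 and 4.64 TPM in the controls (log2 fold change 0.66, SE 0.16, limma adjusted p = 0.0518). NRG2, another neuregulin, was at 3.79 and 10.96 TPM in the knockouts, against 1.30 and 0.981 TPM in the controls (log2 fold change 1.83, SE 0.46, limma adjusted p = 0.0566), and its knockouts differed from each other 2.89-fold. Both lay above both controls in both knockouts, as did 29.2% of all tested genes. Without knockout 1 the log2 fold change was 0.79 for NRG1 and 2.49 for NRG2. Without knockout 2 it was 0.52 for NRG1 and 1.17 for NRG2. With all libraries kept, NRG1 passed with the 5 TPM filter, median ratio scaling, and removal of chromosome medians, the GC trend or local 2 Mb medians. Its limma adjusted p was then 0.0334 to 0.0469, and NRG1 did not pass in the other alternatives with all libraries. Of these alternatives NRG2 passed only with a pseudocount of 0.1 and a replicate block (limma adjusted p = 0.0492 and 0.0401). EGF, the founding ligand, was at 1.72 and 1.43 TPM in the knockouts and at 1.93 and 1.82 TPM in the controls (log2 fold change -0.16, limma adjusted p = 0.552), and the direction turned with chromosome medians removed (0.02). EPGN, epigen, was at 1 and 2 estimated reads in knockouts and 0 in both controls, and ERBB4 was at 1 and 1 in knockouts and 5 and 2 in controls. NRG3 had a single estimated read in knockout 2, and NRG4 a single one in control 2.

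The proteases that shed the ligands, with their cofactors, changed in both directions. Of 8 tested, 3 rose and 2 fell. Over all tested genes 9.06% rose and 8.67% fell. The median log2 fold change of the 8 was 0.409, against -0.0585 over all tested genes, but the list was chosen with earlier results of these data known. ADAM17, the main sheddase of TGFA, AREG, EREG and HBEGF, fell to 37.1 and 33.0 TPM in the knockouts, against 50.9 and 50.8 TPM in the controls (log2 fold change -0.53, SE 0.091, limma adjusted p = 0.0296). ADAM10, the main sheddase of BTC and EGF, fell to 46.7 and 32.0 TPM in the knockouts, against 72.8 and 69.2 TPM in the controls (log2 fold change -0.86, SE 0.19, limma adjusted p = 0.0434). With the GC trend removed neither ADAM17 (limma adjusted p = 0.168) nor ADAM10 (limma adjusted p = 0.0677) passed, and the fold change of ADAM17 was then -0.20. RHBDF2, which encodes the iRhom2 protein that carries ADAM17 to the cell surface, rose to 84.8 and 77.0 TPM in the knockouts, against 54.3 and 48.5 TPM in the controls (log2 fold change 0.64, limma adjusted p = 0.0233). Its relative RHBDF1, named to complete the count, rose as well (log2 fold change 0.42, limma adjusted p = 0.0488). ADAM15, a related metalloprotease, was at 219.9 and 223.7 TPM in the knockouts and at 166.1 and 157.3 TPM in the controls (log2 fold change 0.45, limma adjusted p = 0.0212). No gene of the list passed by limma without control 1 or without control 2.

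Among 16 genes for adaptors, RAS proteins and the kinases down to ERK, 1 rose and 4 fell, where 9.06% of all tested genes rose and 8.67% fell, so the share that rose was near that of all genes. The median of their log2 fold changes was -0.0999, against -0.0585 over all tested genes, and this list was also chosen with earlier results known. SHC1, an adaptor that binds the phosphorylated receptor, rose to 417.4 and 384 TPM in the knockouts, against 270.5 and 258.1 TPM in the controls (log2 fold change 0.60, SE 0.071, limma adjusted p = 0.017). NRAS, a RAS GTPase, fell to 44.3 and 39.8 TPM in the knockouts, against 87.4 and 76.7 TPM in the controls (log2 fold change -0.95, SE 0.10, limma adjusted p = 0.0157). SOS2, a nucleotide exchange factor of RAS, was lower at 6.30 and 5.07 TPM in the knockouts, against 10.8 and 9.69 TPM in the controls (limma adjusted p = 0.0394). The phosphatase PTPN11 fell by 0.34 on the log2 scale (limma adjusted p = 0.0431). With the GC trend removed SOS2 and PTPN11 did not pass (limma adjusted p = 0.0562 and 0.24), and the log2 fold changes were -0.49 and -0.15. PTPN11 also did not pass with median ratio scaling, the constant variance prior, a replicate block or chromosome medians removed (limma adjusted p = 0.0627 to 0.0944). The 11 others, with log2 fold changes of -0.714 to 0.171, did not pass. No gene of this list passed by limma when either control was left out.

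The genes for receptor trafficking and other inhibitors, among them the ubiquitin ligases CBL and CBLB, gave no call by limma. Of 15 listed, 14 were tested and 0 passed in limma, where 17.7% of all tested genes did. The median log2 fold change of the 14 was 0.00683, with a range of -0.444 to 0.197. In limma 2 of them had an unadjusted p under 0.05, and the share of all tested genes at that level was not counted. LRIG1, which promotes degradation of EGFR, was too low to test. Without knockout 1 the median log2 fold change of the 14 was -0.0477, against -0.0627 over all tested genes.

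Genes that ERK signalling induces, including its feedback inhibitors, were mostly higher. Of 19 listed, 17 were tested, 14 rose and 0 fell, where 9.06% of all tested genes rose and 8.67% fell. Their median log2 fold change was 1.21, against -0.0585 over all tested genes, but the list was chosen with earlier results of these data known. ETV4 and SPRY4, both among the 14, entered the tested set only through their knockout values. Both knockouts lay above both controls for 18 of the 19, where 29.2% of all tested genes did. The 19 include the untested FOS and SPRY1, and for ETV4 and SPRY4 the filter fixed this order. Knockout 2 was higher than knockout 1 for 16 of the 17 tested, against 50.3% of all tested genes. ETV5, an ETS transcription factor, was at 34.1 and 40.6 TPM in the knockouts, against 7.97 and 7.69 TPM in the controls (log2 fold change 2.11, SE 0.12, limma adjusted p = 0.00812). ETV4, of the same subfamily, was at 7.67 and 11.96 TPM in the knockouts, against 0.219 and 0.316 TPM in the controls (log2 fold change 3.07, SE 0.25, limma adjusted p = 0.0111). CCND1, cyclin D1, was at 743.4 and 622.8 TPM in the knockouts, against 308.1 and 310.8 TPM in the controls (log2 fold change 1.13, limma adjusted p = 0.0125). DUSP4, a phosphatase of ERK, was at 5.54 and 6.04 TPM in the knockouts, against 1.25 and 1.13 TPM in the controls (log2 fold change 1.63, limma adjusted p = 0.0143). EGR1, MYC and SPRED1 did not pass, with log2 fold changes of 0.188 to 0.585, and FOS and SPRY1 were too low to test. Without control 1 or without control 2, ETV5 alone of the list passed (limma adjusted p = 0.0453 and 0.0469). ERK activity itself was not measured.

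**Figure D5:**
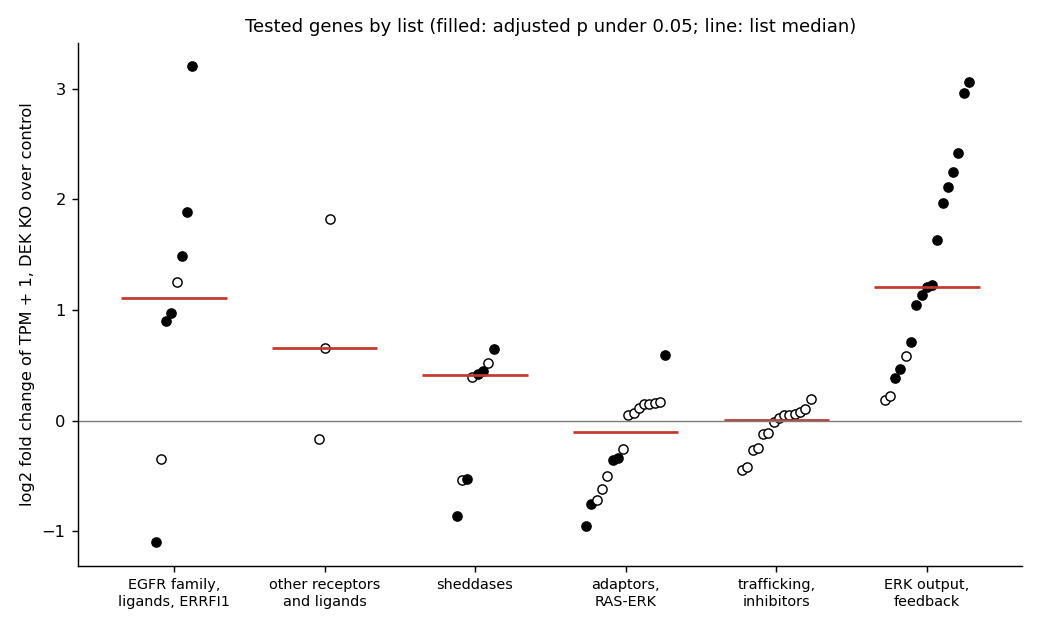
Log2 fold change of TPM + 1, DEK knockout over control, for each tested gene of the family and of 5 pathway lists (filled where the limma adjusted p is under 0.05), with red lines for list medians. The medians are 1.11 for the family, 0.656 for other receptors and ligands, 0.409 for sheddases, -0.0999 for adaptors and the RAS-ERK cascade, 0.00683 for trafficking and inhibitors and 1.21 for ERK output and feedback.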

How the data were processed

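The authors deposited a table of TPM with 59409 gene symbols and 1 column per library, and each column sums to 1000000. Per the submitters' processing notes, the build was hg38 and the tools included STAR 2.7.8a, DESeq2 1.36.0, featureCounts 2.0.1 and cutadapt 1.18, with no role stated. Not given in the sources used here are the annotation, the gene lengths and whether counting used strand. Libraries were assigned to DEK knockout (2) or control (2) from their titles.

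The 15815 genes that reached 1 TPM in 2 or more libraries were fitted as log2(TPM + 1) with limma 3.58.1 in R 4.3.3, with group as the only term, a variance prior that follows mean expression, and Benjamini-Hochberg adjustment over all tested genes at 0.05. A filter that a gene passes through 1 group alone favours its call. The pseudocount of 1 makes log2 fold changes of low genes too small, and folds without log2 are ratios of mean TPM. No permutation test was run, since 2 against 2 libraries give an exact p of 0.333 at best. The fit was tested on simulated data with independent noise per gene and library. Such data hold no shifts shared by a clone or a chromosome region.

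Positions, exon lengths and overlaps came from GENCODE 29 on GRCh38, with 54330 symbols matched by name, 2219 through current symbols and 2860 unmatched. Depth was estimated from the steps of low TPM values times exon length, with 45.6% to 54% of values under 200 reads whole to within 0.02, where chance gives 4%. Read numbers are therefore approximate, and their precision covers counting error only. For ERBB3, EPGN, ERBB4, NRG3 and NRG4 they were rescaled per gene to whole numbers. Before that step ERBB3 stood at 11.4 and 2.53 reads in the knockouts and 0 and 8.85 in the controls.

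The family members and the pathway lists were chosen with earlier results of these data known, so no list was tested as a set. Named genes are all members, all other receptors and ligands of the family, up to 4 called genes of each other list by smallest p, DEK, and the 3 profiles nearest to TGFA and to EGFR. RHBDF1, the members of the lists named as not passed or not tested and the neighbours of EGFR were named after their values were seen. A few list members are withheld and not reported here. Renal and other cell markers served as a check of the line. Alternatives covered the pseudocount, the filter, scaling, the variance prior, a replicate block, chromosome medians, the GC trend, a stricter threshold and the omission of each library. Removal of local 2 Mb medians was added after the data were seen.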

Additional observations from a re-analysis of the deposited data

How the results depend on the processing

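The 2804 genes called, 1433 higher and 1371 lower, became 26 with no filter on low values, 1437 with a constant variance prior and 90 at an adjusted p of 0.01, and 47 to 5510 with 1 library left out. The split was 1588 higher and 955 lower with median ratio scaling, 1716 and 1122 with chromosome medians removed, 1511 and 1102 with local medians removed, 866 and 571 with the constant prior and 1337 and 1598 with the 5 TPM filter. The 6 family members called became 1 with no filter and 2 at 0.01, and 1 to 7 with 1 library left out. For the other receptors and ligands the 0 called became 1 with a pseudocount of 0.1, the 5 TPM filter, median ratio scaling, chromosome medians removed, the GC trend removed or local medians removed, and 0 to 2 with a library left out. The 5 sheddases called became 0 with no filter, 0 with the constant prior, 2 with the GC trend removed and 0 at 0.01, and 0 to 7 with a library left out. The 5 adaptors and cascade genes became 0 with no filter, 3 with median ratio scaling, 2 with the constant prior, 3 with chromosome medians removed and 0 at 0.01, and 0 to 8 with a library left out. Trafficking genes ranged from 0 to 3 with a library left out. The 14 ERK output genes became 0 with no filter and 1 at 0.01, and 1 to 14 with a library left out.

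Of the log2 fold changes of named genes under all alternatives, 334 kept direction and side of the threshold, 88 no longer passed, 15 newly passed and 2 reversed. The reversals were EGF at 0.022 with chromosome medians removed and 0.27 with local medians removed, against -0.16. With no filter the adjusted p in limma was 0.0899 for AREG, 0.079 for EREG, 0.0619 for EGFR and 0.0572 for ERRFI1. The causes were not tested beyond the number of genes or libraries each alternative leaves. Groups of 2 leave 2 residual degrees of freedom in all, and with a library left out the lone library is assumed to vary like the other group.

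The replicate numbers are not shown to mark shared cultures, and the deviations of same-numbered libraries correlated at 0.159 over 9580 genes, from only 2 pairs. With the replicate number as a block, 2971 genes passed, 7 family members did, HBEGF joining with a limma adjusted p of 0.0471, and 1 of the other receptors and ligands did (NRG2, 0.0401). The ERK output genes called became 12 with the block, and PTPN11 did not pass (limma adjusted p = 0.0656).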

Other observations

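Around the ligand cluster on chromosome 4, 22 other tested genes lie at least partly within 2 Mb of AREG. Of these 4 rose and 1 fell, where 9.06% and 8.67% of all tested genes did. The count includes EREG and BTC, which belong to the family chosen with earlier results of these data known. BTC entered the tested set only through its knockout values. The genes that rose were EREG, BTC, the chemokine CXCL8 (log2 fold change 2.93, limma adjusted p = 0.0348) and SCARB2, a lysosomal membrane protein (log2 fold change 0.375, limma adjusted p = 0.0354). The gene that fell was G3BP2, a stress granule protein. CXCL8, SCARB2 and G3BP2 were named after their values were seen.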
